A study of Mus musculus with 16 samples.

Results

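The genes described here are 34 surface receptors, adhesion molecules, adaptors, oxidase subunits and lysosomal proteins by which monocytes and macrophages bind, engulf and kill microbes. They were taken by gene symbol from 30943 genes on a mouse array, and all 34 had a row. A symbol with several transcript clusters was represented by the one that was brightest on average.

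Monocytes are made in the bone marrow, circulate in blood and enter inflamed skin, where they can turn into macrophages beside the resident macrophages of the dermis. These cells see opsonised or microbial particles through Fc receptors, integrins, scavenger receptors and C-type lectins, many of which signal through adaptors with an immunoreceptor tyrosine-based activation motif (ITAM). Engulfed particles meet an oxidase that makes superoxide, and lysosomal proteins such as lysozyme. Many of the 34 genes are also used by neutrophils, so a rise of one of them in whole tissue does not by itself point to a macrophage.

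RNA of whole ear flaps was hybridised to 16 Affymetrix Mouse Gene ST 2.1 arrays, 4 in each of 4 groups. The groups were miR-146a-/- mice (knockout) given Aldara cream, knockout mice given a vehicle control, wild-type mice given Aldara and wild-type mice given vehicle, all of the C57BL/6J background and aged 8 to 11 weeks. Aldara holds 5% imiquimod (IMQ), an agonist of Toll-like receptor 7 that brings on a psoriasis-like inflammation of mouse skin. The right ear received 31.25 mg a day on 3 days, and mice were killed on day 4. The labels name no tissue-specific driver for the miR-146a deletion, do not give the composition of the vehicle and do not say whether arrays of a group came from separate mice, so the p-values may reflect technical spread alone. In whole ear tissue, fewer cells of a type and less RNA per cell cannot be told apart. The comparison asks how the ears of mice without miR-146a, a microRNA known to restrain signalling from Toll-like and interleukin-1 receptors, differ in their response to IMQ. The mature 5p strand that the knockout removes lies on the minus strand at chr11:43374435-43374456 (RefSeq, GRCm38.p6) and is shown with its seed, bases 2 to 8, in capitals.
mmu-miR-146a-5p: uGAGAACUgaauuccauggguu

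Levels are log2 values, and the middle gene of an array read 3.21 to 3.28. A group mean at or below 3.28 was taken as dim, and a change measured from such a level may understate the true one. Such a change is called a lower bound here, a term that does not cover sampling error. Replicate arrays correlated with r from 0.960 to 0.976 across transcript clusters, and no arrays were identical. The miR-146a gene (symbol Mir146) averaged 1.85 in knockout IMQ, 1.80 in knockout vehicle, 1.97 in wild-type IMQ and 1.87 in wild-type vehicle ears, far below the array medians, so it is no check of the genotypes. The presence of skin was borne out by the epidermal keratin genes Krt5 (10.97 to 11.54) and Krt14 (11.12 to 11.77) on every array. Of the cartilage genes checked, Acan read 7.07 to 8.72 and Col2a1 3.42 to 5.14, the latter near the array medians at its low end. Of the general macrophage genes, Csf1r read 5.43 to 6.57 and Cd68 5.66 to 6.78, above the medians of all arrays.

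IMQ raised 16 of the 34 genes in knockout ears and 16 in wild-type ears, at an adjusted p under 0.05 in a limma fit over all genes. A call of this kind in the upward direction was made for 8.07% of all genes in knockout and 1.95% in wild-type ears. In knockout ears 1 member, Lyz1, fell, against a background of 6.91% of all genes called lower, and in wild-type ears no member fell (background 1.69%), all 34 having a positive change. The median change of the members was 0.72 on the log2 scale in knockout and 0.76 in wild-type ears, while the median over all genes was -0.02 in both. In knockout ears 31 members had a positive change. All 4 IMQ arrays lay above all 4 vehicle arrays for 13 members in knockout ears, where 8.55% of all genes showed this, and for 23 members in wild-type ears, where 5.52% did.

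Both genotypes shared 13 of the called rises, against 1.38% of all genes called higher in both, and 9 members had IMQ arrays entirely above vehicle arrays in both, as did 2.7% of all genes. The shared genes were Itgam, Emr1, Ly6c2, Plac8, Fcgr1, Fcer1g, Tyrobp, Mpeg1, Clec4d, Clec4e, Msr1, Pirb and Cd300lf. Their rises ran from 1.75-fold to 6.11-fold in knockout ears and from 1.65-fold to 4.48-fold in wild-type ears, counting changes from dim levels at their lower bounds. Cd14, Ms4a6d and Ncf4 were called in knockout ears alone, and Lyz2, Cybb and Cyba in wild-type ears alone. A call in one genotype and not in the other does not show that the effects differ, and the test of that difference comes further on.

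**Figure D1:**
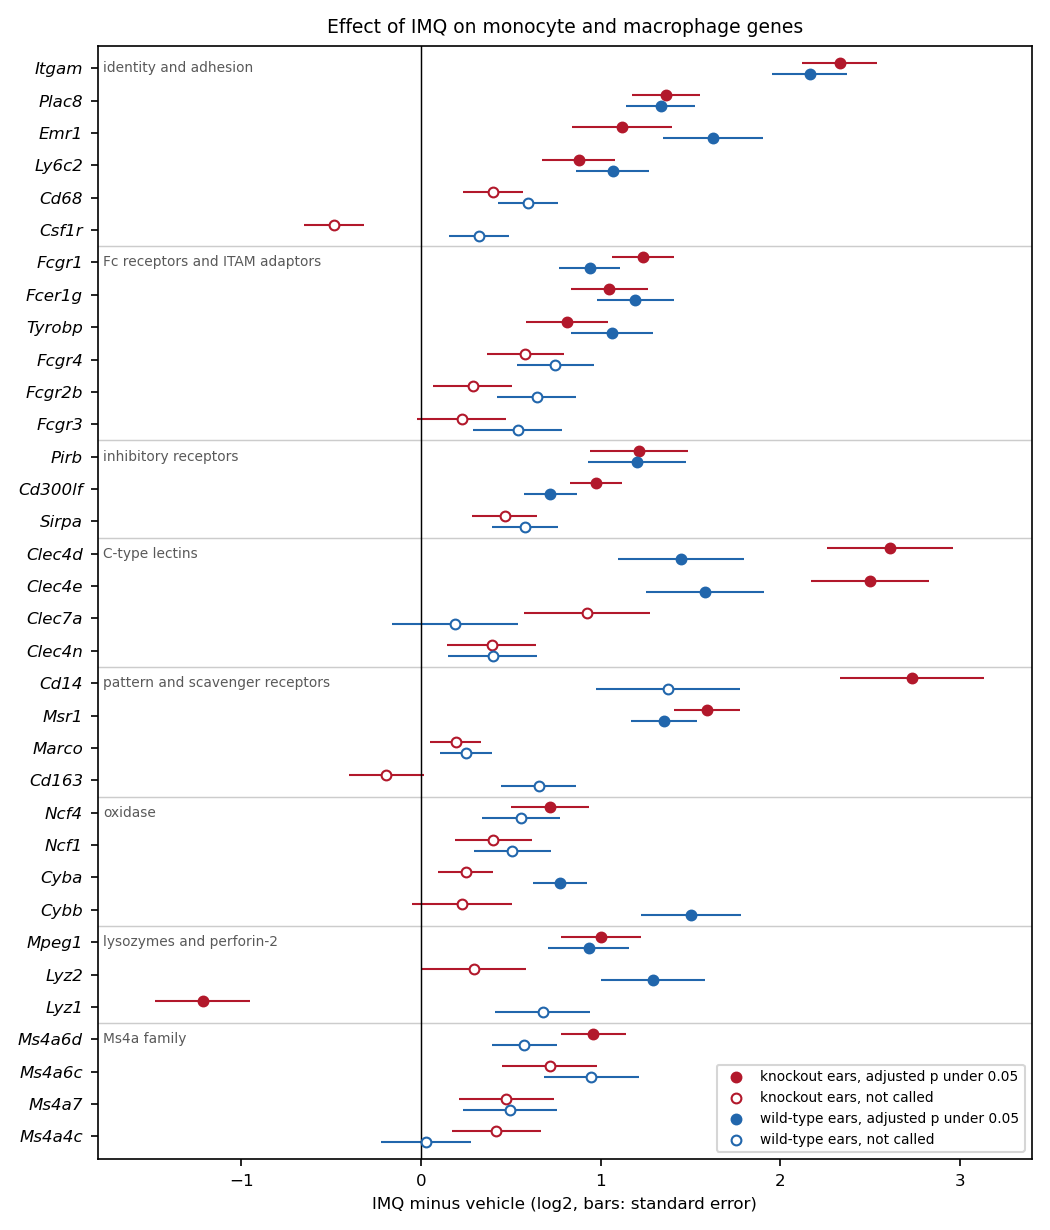
Change with IMQ of each of the 34 genes (x axis, IMQ minus vehicle in log2, bars are standard errors) in knockout ears (red, upper) and wild-type ears (blue, lower), ordered by role. Filled points passed an adjusted p under 0.05. Clec4d, Clec4e and Cd14 reach beyond 2.4 in knockout ears, Itgam passes 2 in both genotypes, and Lyz1 lies at -1.21 in knockout ears.

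Itgam encodes CD11b, the integrin chain that pairs with the Itgb2 product as complement receptor 3 on monocytes, macrophages and neutrophils. Its log2 level was 7.49, 7.55, 6.93 and 7.47 in knockout IMQ ears, against 5.03, 5.66, 4.55 and 4.88 in knockout vehicle ears. With IMQ the wild-type ears read 7.26, 7.40, 7.39 and 7.04, against 4.88, 5.02, 5.61 and 4.93 with vehicle. Every IMQ ear stood far above every vehicle ear in both genotypes. The rise was 2.33 ± 0.21 in knockout (adjusted p = 6.45e-07) and 2.16 ± 0.21 in wild-type ears (adjusted p = 1.05e-05; ± gives the standard error of a log2 change, with 4 arrays a group). Its partner Itgb2 rose by 1.52 in knockout and 1.61 in wild-type ears. The 250 bases before the Itgam start, on the plus strand at chr7:128062390-128062639 (RefSeq, GRCm38.p6), are shown because this gene was called in both genotypes under all 26 alternative settings. The capitals mark GAGGAA or its reverse complement, the core letters bound by the myeloid factor PU.1, at -84 and -15 relative to the start.
Itgam: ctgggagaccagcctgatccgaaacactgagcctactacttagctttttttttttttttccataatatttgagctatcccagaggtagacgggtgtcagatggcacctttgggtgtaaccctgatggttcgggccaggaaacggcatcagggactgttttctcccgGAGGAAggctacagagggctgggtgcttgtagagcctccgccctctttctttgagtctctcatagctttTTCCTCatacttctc

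Emr1, now Adgre1, encodes F4/80, the classical surface mark of mouse macrophages. It read 5.12, 6.09, 4.93 and 5.37 in knockout IMQ ears, against 4.02, 4.85, 3.73 and 4.44 in knockout vehicle ears. Wild-type ears read 5.33, 5.79, 5.71 and 4.87 with IMQ, against 3.45, 4.09, 3.42 and 4.24 with vehicle. The groups did not overlap in either genotype, although the gap in knockout ears was narrow, from 4.93 down to 4.85. Emr1 rose by 1.12 ± 0.28 in knockout (adjusted p = 0.00895) and by 1.63 ± 0.28 in wild-type ears (adjusted p = 0.00171). Without knockout vehicle arrays 3 and 4 the knockout value was 0.94 and its call was lost (adjusted p = 0.0939, range over all alternatives 0.00168 to 0.0939).

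Ly6c2 and Plac8 rose from low levels. Ly6c2 encodes the Ly6C antigen of inflammatory monocytes. It averaged 3.74 in knockout IMQ and 2.86 in knockout vehicle ears, and 4.39 in wild-type IMQ and 3.32 in wild-type vehicle ears. Its rise was 0.88 ± 0.20 in knockout (adjusted p = 0.00533) and 1.07 ± 0.20 in wild-type ears (adjusted p = 0.00393), and the knockout arrays overlapped, with 1 IMQ ear at 3.27 and 1 vehicle ear at 3.48. The knockout value is a lower bound. Without knockout vehicle arrays 3 and 4 the knockout call was lost here too (0.68, adjusted p = 0.0876, range 5.98e-04 to 0.240). Plac8, a gene active in Ly6C-high monocytes and in neutrophils, read 4.53, 4.52, 3.66 and 4.39 in knockout IMQ ears, against 2.79, 3.18, 3.01 and 2.67 in knockout vehicle ears. Wild-type ears read 4.72, 4.53, 4.24 and 3.93 with IMQ, against 3.05, 3.10, 3.06 and 2.88 with vehicle. No arrays overlapped, and the rise was 1.36 ± 0.19 in knockout and 1.33 ± 0.19 in wild-type ears, both lower bounds because the vehicle means of 2.91 and 3.02 were dim. Ccr2, the chemokine receptor gene of inflammatory monocytes and no member of the 34, averaged 3.71 in knockout IMQ and 3.70 in knockout vehicle ears (adjusted p = 0.977), and 3.74 in wild-type IMQ and 3.81 in wild-type vehicle ears (adjusted p = 0.938).

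Csf1r and Cd68 did not pass the test in either genotype. Csf1r, the receptor for the survival factors CSF1 and IL-34, read 5.75, 5.82, 5.49 and 5.70 in knockout IMQ ears, against 5.88, 6.57, 5.84 and 6.41 in knockout vehicle ears. All 4 knockout IMQ arrays were below all 4 vehicle arrays, with a change of -0.48 ± 0.17 (adjusted p = 0.0596). In wild-type ears its change was 0.32 ± 0.17 (adjusted p = 0.405) and the arrays overlapped. The lysosomal glycoprotein gene Cd68 changed by 0.40 ± 0.17 in knockout (adjusted p = 0.129) and 0.60 ± 0.17 in wild-type ears (adjusted p = 0.0547), where its IMQ arrays (6.37 to 6.78) all lay above its vehicle arrays (5.66 to 6.10).

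**Figure D2:**
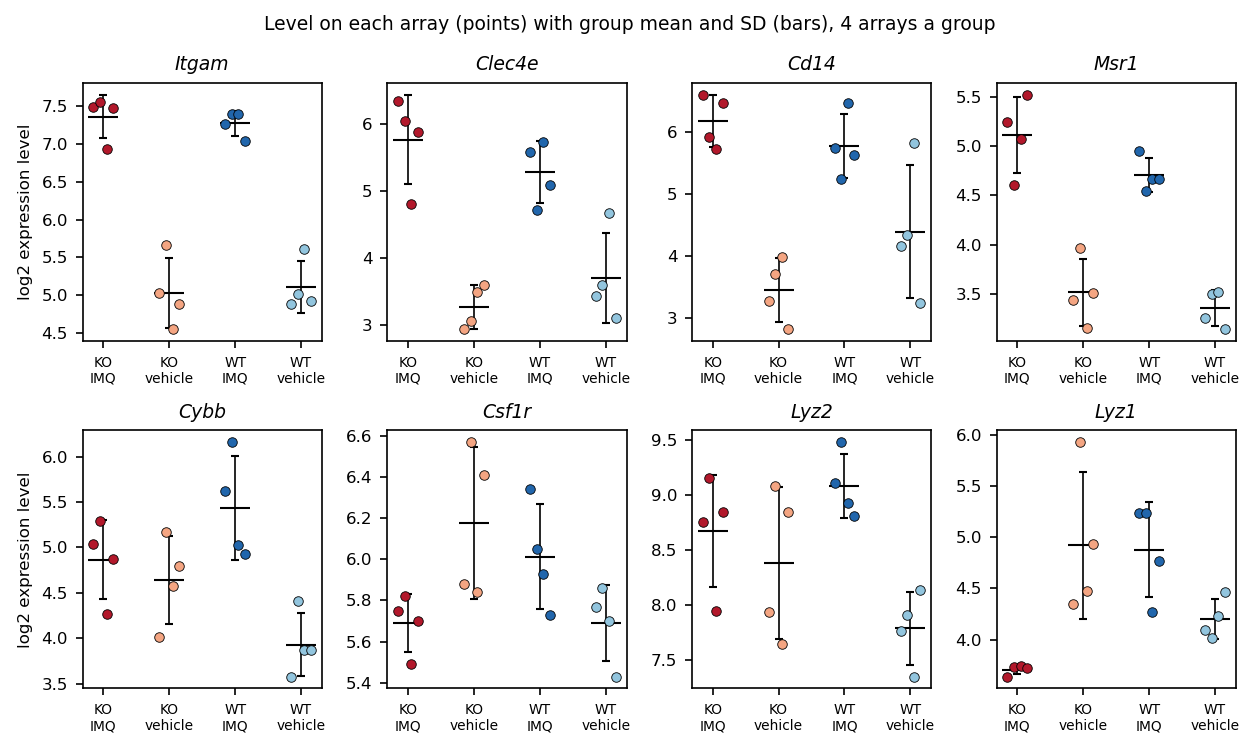
Log2 level (y axis) of 8 members on each array, with group mean and SD. Itgam, Clec4e and Msr1 separate IMQ from vehicle ears in both genotypes, Csf1r and Lyz1 are lower in knockout IMQ than in knockout vehicle ears, and Cd14 has a wild-type vehicle ear at 5.82.

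Among the receptors for the Fc part of IgG, the high-affinity receptor gene Fcgr1 was the only one of 4 to pass. Fcgr1 read 4.90, 5.09, 4.88 and 5.60 in knockout IMQ ears, against 3.81, 4.08, 3.83 and 3.81 in knockout vehicle ears. It read 5.25, 5.41, 4.64 and 4.91 in wild-type IMQ ears, against 4.17, 4.12, 4.25 and 3.92 in wild-type vehicle ears. The vehicle ears of both genotypes were tightly grouped and every IMQ ear stood above them. The rise was 1.24 ± 0.17 in knockout (adjusted p = 5.27e-05) and 0.94 ± 0.17 in wild-type ears (adjusted p = 0.00267).

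The other 3 receptor genes did not pass. Fcgr3, an activating receptor, changed by 0.23 ± 0.25 in knockout (adjusted p = 0.656) and 0.54 ± 0.25 in wild-type ears (adjusted p = 0.319). Fcgr2b, the inhibitory receptor, changed by 0.29 ± 0.22 (adjusted p = 0.480) and 0.64 ± 0.22 (adjusted p = 0.133), and Fcgr4, a further activating receptor, by 0.58 ± 0.22 (adjusted p = 0.0838) and 0.75 ± 0.22 (adjusted p = 0.0652), in knockout and in wild-type ears. Both Fcgr4 changes are lower bounds from dim vehicle levels. In wild-type ears the IMQ arrays of Fcgr2b and Fcgr3 lay entirely above the vehicle arrays, and in knockout ears they overlapped. These 3 genes stand side by side on chromosome 1 with no other protein-coding gene between them, 7 protein-coding genes from Fcer1g, while Fcgr1 lies on chromosome 3. Probe sets of Fcgr2b and Fcgr3 may share sequence, as may those of Lyz1 and Lyz2, of Ly6c2 and its neighbours and of Pirb and the Pira genes, so members of such pairs are not independent readings.

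Both ITAM adaptor genes rose in both genotypes. Fcer1g encodes the shared gamma chain of Fc receptors and of several C-type lectins. It read 6.86, 6.85, 6.38 and 6.78 in knockout IMQ ears, against 5.23, 6.35, 5.20 and 5.90 in knockout vehicle ears. In wild-type ears it read 7.15, 6.90, 6.84 and 6.47 with IMQ, against 5.51, 5.54, 5.94 and 5.60 with vehicle. The groups stayed apart, though knockout vehicle array 2 (6.35) came close to the lowest knockout IMQ array (6.38). Fcer1g rose by 1.05 ± 0.22 in knockout (adjusted p = 0.00210) and 1.19 ± 0.22 in wild-type ears (adjusted p = 0.00259). Tyrobp, the DAP12 adaptor, rose by 0.81 ± 0.23 in knockout (adjusted p = 0.0203) and 1.06 ± 0.23 in wild-type ears (adjusted p = 0.0104). Its knockout call was lost when any of 4 single arrays was left out (adjusted p 0.0521 to 0.0716), namely knockout IMQ arrays 1 and 4 and knockout vehicle arrays 1 and 3.

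Of 14 genes that carry the ITAM signal, 9 rose and 1 fell in knockout ears and 5 rose and 1 fell in wild-type ears, with medians of 0.61 and 0.35. Over all genes, 8.07% were called higher and 6.91% lower in knockout ears, and 1.95% and 1.69% in wild-type ears. These shares are the background of every later list too. In knockout ears 1 fall among 14 genes is near that share. The Src-family kinases Lyn (1.25 in knockout, 1.26 in wild type) and Fgr (0.91 and 1.10) rose, as did the scaffold Lcp2, also called SLP-76 (1.40 and 1.45). The gene that fell was the kinase gene Prkcd (-0.42 and -0.42), singled out after its values were seen.

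Of the 3 inhibitory receptors, Pirb and Cd300lf rose in both genotypes. Pirb, which recruits tyrosine phosphatases, read 4.94, 5.06, 4.03 and 4.53 in knockout IMQ ears, against 2.78, 4.03, 3.19 and 3.71 in knockout vehicle ears. Wild-type ears read 4.66, 4.57, 4.42 and 4.31 with IMQ, against 2.66, 3.25, 3.94 and 3.30 with vehicle. The knockout groups met at 4.03 and the wild-type groups did not overlap. The rise was 1.21 ± 0.27 in knockout (adjusted p = 0.00429) and 1.20 ± 0.27 in wild-type ears (adjusted p = 0.0155), and the wild-type call was lost without IMQ array 1 (adjusted p = 0.0517) or without vehicle array 1 (adjusted p = 0.0630, range over alternatives 0.00529 to 0.389).

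Cd300lf, an inhibitory receptor for lipids, rose by 0.97 ± 0.15 in knockout (adjusted p = 1.22e-04) and 0.72 ± 0.15 in wild-type ears (adjusted p = 0.00666). In knockout ears its 4 IMQ arrays read 4.12 to 4.28, against 3.06 to 3.35 on the vehicle arrays, whose dim mean of 3.21 makes the change a lower bound. Sirpa, the receptor for the CD47 signal that spares cells from being engulfed, changed by 0.46 ± 0.18 in knockout (adjusted p = 0.106) and 0.58 ± 0.18 in wild-type ears (adjusted p = 0.0997). Of 12 measured genes for phosphatases, ligands and other inhibitory receptors of this type, 7 rose in knockout and 6 in wild-type ears and none fell (medians 0.59 and 0.73). The receptor gene Lilrb4 rose by 1.79 and 1.44, Siglece, a sialic acid receptor, by 0.97 and 0.74, in knockout and in wild-type ears.

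The C-type lectins split into a pair that rose steeply and a pair that did not pass. Clec4e encodes Mincle, a receptor for mycobacterial and fungal glycolipids and for products of dying cells. Clec4e read 6.34, 6.05, 4.81 and 5.88 in knockout IMQ ears, against 2.94, 3.06, 3.49 and 3.60 in knockout vehicle ears. Clec4e read 5.59, 4.72, 5.74 and 5.09 in wild-type IMQ ears, against 3.44, 3.60, 4.67 and 3.11 in wild-type vehicle ears. No arrays overlapped, but wild-type vehicle array 3 (4.67) lay just under the lowest wild-type IMQ array. The measured rise was 5.65-fold in knockout ears (2.50 ± 0.33, 95% interval 1.81 to 3.19, adjusted p = 3.22e-05), where the vehicle mean of 3.27 was dim. In wild-type ears it was 2.99-fold (1.58 ± 0.33, adjusted p = 0.00798).

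Clec4d encodes MCL, which pairs with Mincle at the cell surface. Clec4d read 6.19, 5.81, 5.05 and 6.06 in knockout IMQ ears, against 2.65, 3.56, 3.34 and 3.12 in knockout vehicle ears. In wild-type ears it read 5.54, 5.12, 5.83 and 5.34 with IMQ, against 3.58, 4.03, 5.32 and 3.12 with vehicle. Wild-type vehicle array 3 stood inside the IMQ range, and the knockout groups were far apart. The measured rise of Clec4d was 6.11-fold in knockout ears (2.61 ± 0.35, 95% interval 1.88 to 3.34, adjusted p = 3.95e-05), where the vehicle mean of 3.17 was dim. In wild-type ears it was 2.72-fold (1.45 ± 0.35, adjusted p = 0.0242). The wild-type call was lost on leaving out any of 6 single arrays (adjusted p 0.0510 to 0.0964), which were IMQ arrays 1, 3 and 4 and vehicle arrays 1, 2 and 4.

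Clec4n, which encodes dectin-2, a receptor for fungal mannans, lies directly beside Clec4d and Clec4e on chromosome 6. Its change was 0.39 ± 0.25 in knockout (adjusted p = 0.372) and 0.40 ± 0.25 in wild-type ears (adjusted p = 0.526). Clec7a, which encodes dectin-1, the receptor for fungal beta-glucan, changed by 0.92 ± 0.35 in knockout (adjusted p = 0.0917) and 0.19 ± 0.35 in wild-type ears (adjusted p = 0.885), with its highest vehicle level, 5.37, again on wild-type vehicle array 3.

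The windows of 250 bases before the starts of Clec4e (minus strand, chr6:123289872-123290121) and Clec4d (plus strand, chr6:123261857-123262106) are printed from RefSeq (GRCm38.p6). These neighbours had measured rises of 5.65-fold and 6.11-fold in knockout ears. Capitals mark GAGGAA in either direction, at -123 and -56 relative to the start in Clec4e and at -240 in Clec4d, and, in Clec4e, TTNNGCAA, the reverse complement of the C/EBP letters TTGCNNAA, at -66.
Clec4e: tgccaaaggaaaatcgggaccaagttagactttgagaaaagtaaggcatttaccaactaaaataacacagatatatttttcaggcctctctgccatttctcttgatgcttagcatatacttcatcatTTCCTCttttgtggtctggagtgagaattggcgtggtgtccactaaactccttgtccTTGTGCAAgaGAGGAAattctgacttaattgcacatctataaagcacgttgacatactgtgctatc
Clec4d: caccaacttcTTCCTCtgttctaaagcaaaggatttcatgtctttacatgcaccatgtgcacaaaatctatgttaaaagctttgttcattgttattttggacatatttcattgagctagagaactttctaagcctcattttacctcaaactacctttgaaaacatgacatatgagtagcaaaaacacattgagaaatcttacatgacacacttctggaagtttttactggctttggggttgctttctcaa

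Of the 25 members with such a window, 14 (56.0%) held the PU.1 letters GAGGAA or TTCCTC, against 25.9% of the 27025 genes with a window. The C/EBP letters TTGCNNAA were found in 5 members (20%, against 10.8% of all), the NF-kB letters GGGNNTTCC in 3 (12%, against 5.61%), the AP-1 letters TGANTCA in 3 (12%, against 7.82%) and the STAT letters TTCNNNGAA in 2 (8.0%, against 8.13%), on either strand. The PU.1 and NF-kB letters can overlap. Holders of the PU.1 letters included members that rose in both genotypes (Itgam, Ly6c2, Plac8, Fcgr1, Pirb, Cd300lf, Clec4d, Clec4e) and members that passed in neither (Cd68, Fcgr3, Fcgr4, Clec7a, Marco, Ms4a4c). A match of letters is a description of the window and not evidence of a bound site.

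Cd14, the co-receptor that hands lipopolysaccharide to Toll-like receptor 4, rose in knockout ears. Its levels were 6.59, 5.91, 5.72 and 6.47 in knockout IMQ ears, against 3.26, 3.71, 3.98 and 2.81 in knockout vehicle ears. Wild-type ears read 5.73, 5.23, 6.47 and 5.62 with IMQ, against 4.16, 4.34, 5.82 and 3.23 with vehicle. The knockout groups were widely separated, while wild-type vehicle array 3 lay above 3 of the wild-type IMQ arrays. Cd14 rose 6.65-fold in knockout ears (2.73 ± 0.40, adjusted p = 9.58e-05). In wild-type ears the change was 1.38 ± 0.40 and missed the threshold (adjusted p = 0.0684), and without vehicle array 3 it was 1.85 (adjusted p = 0.00295, range over alternatives 0.00295 to 0.228).

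Msr1, the class A scavenger receptor for modified lipoproteins and bacteria, read 5.24, 4.60, 5.07 and 5.52 in knockout IMQ ears, against 3.44, 3.97, 3.15 and 3.51 in knockout vehicle ears. It read 4.95, 4.54, 4.67 and 4.67 in wild-type IMQ ears, against 3.26, 3.50, 3.52 and 3.14 in wild-type vehicle ears. The groups did not overlap in either genotype. Msr1 rose 3.01-fold in knockout (1.59 ± 0.18, adjusted p = 9.53e-06) and 2.55-fold in wild-type ears (1.35 ± 0.18, adjusted p = 2.82e-04). Its relative Marco stayed at 2.76 to 3.57 on all arrays, around or below the array medians, and was the only member without a level above the medians on at least 4 arrays. Cd163, the hemoglobin scavenger receptor of resident macrophages, read 5.69, 5.49, 5.93 and 5.94 in knockout IMQ ears, against 5.62, 6.67, 5.52 and 6.02 in knockout vehicle ears, which overlapped (-0.20 ± 0.21, adjusted p = 0.647). In wild-type ears all IMQ arrays (5.96, 6.50, 6.16 and 5.99) lay above all vehicle arrays (5.27, 5.33, 5.55 and 5.84), with a change of 0.66 ± 0.21 that did not pass (adjusted p = 0.103).

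The phagocyte oxidase joins a membrane pair, gp91phox (Cybb) and p22phox (Cyba), with cytosolic subunits such as p47phox (Ncf1) and p40phox (Ncf4). The membrane pair rose in wild-type ears. Cybb read 5.04, 5.29, 4.27 and 4.87 in knockout IMQ ears, against 4.01, 5.17, 4.58 and 4.80 in knockout vehicle ears. In wild-type ears it read 5.62, 6.16, 5.03 and 4.93 with IMQ, against 3.58, 4.41, 3.87 and 3.87 with vehicle. The knockout groups overlapped over most of their range and the wild-type groups did not. The change was 0.23 ± 0.28 in knockout (adjusted p = 0.701), against a rise of 1.50 ± 0.28 in wild-type ears (adjusted p = 0.00337).

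Cyba changed by 0.25 ± 0.15 in knockout (adjusted p = 0.349), against a rise of 0.77 ± 0.15 in wild-type ears (adjusted p = 0.00504). Its lowest wild-type IMQ array, 5.24, was above its highest wild-type vehicle array, 5.16. A difference between the membrane and the cytosolic subunits was not tested. Ncf4 rose by 0.72 ± 0.22 in knockout ears (adjusted p = 0.0318) and changed by 0.56 ± 0.22 in wild-type ears (adjusted p = 0.217). The Ncf4 call in knockout ears was lost on leaving out any of 6 single arrays, IMQ arrays 1, 2 and 4 and vehicle arrays 1, 2 and 3 (adjusted p 0.0586 to 0.109). Ncf1 changed by 0.40 ± 0.21 in knockout (adjusted p = 0.266) and 0.51 ± 0.21 in wild-type ears (adjusted p = 0.263). Of 10 further genes of oxidase function, 4 rose in knockout and 2 in wild-type ears and none fell. Rac2, the small GTPase of the phagocyte oxidase, rose by 1.27 in knockout and 1.22 in wild-type ears. Duox1, an epithelial oxidase, rose by 1.42 in knockout ears and its IMQ effect was larger there than in wild-type ears by 1.15 ± 0.26 (adjusted p = 0.0363).

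Lyz1 and Lyz2 encode lysozymes, which cut bacterial cell walls. The mouse has these adjacent copies on chromosome 10, of which Lyz2 is the macrophage form and Lyz1 is best known from the Paneth cells of the gut. Lyz1 read 3.64, 3.73, 3.74 and 3.72 in knockout IMQ ears, against 4.35, 5.93, 4.48 and 4.93 in knockout vehicle ears. In wild-type ears it read 5.24, 5.24, 4.27 and 4.77 with IMQ, against 4.09, 4.02, 4.23 and 4.47 with vehicle. The knockout IMQ ears were all lower than every other ear and close to each other, and knockout vehicle array 2 was the highest. Lyz1 fell by 1.21 on the log2 scale in knockout ears (standard error 0.27, adjusted p = 0.00334), against a change of 0.68 ± 0.27 in wild-type ears (adjusted p = 0.213).

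Lyz2 read 8.75, 9.15, 7.95 and 8.84 in knockout IMQ ears, against 7.94, 9.08, 7.65 and 8.84 in knockout vehicle ears. Lyz2 read 9.11, 9.48, 8.93 and 8.81 in wild-type IMQ ears, against 7.76, 7.91, 7.35 and 8.14 in wild-type vehicle ears. The knockout groups overlapped almost entirely, and in wild-type ears every IMQ array stood above every vehicle array. Lyz2 changed by 0.30 ± 0.29 in knockout (adjusted p = 0.609), against a rise of 1.29 ± 0.29 in wild-type ears (adjusted p = 0.0141) that was lost without IMQ array 2 (adjusted p = 0.0562) or vehicle array 3 (adjusted p = 0.0548, range over alternatives 0.00115 to 0.237).

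The windows of 250 bases before Lyz1 (chr10:117292869-117293118) and Lyz2 (chr10:117282273-117282522), both on the minus strand, are set side by side (RefSeq, GRCm38.p6). In knockout ears Lyz1 was called lower and Lyz2 was not called in either direction. They matched at 205 of 260 aligned columns (78.8%). Capitals mark the C/EBP letters in the same reverse complement, TTNNGCAA, found in Lyz1 at -209 relative to the start. This window of Lyz2 held them in neither direction.
Lyz1: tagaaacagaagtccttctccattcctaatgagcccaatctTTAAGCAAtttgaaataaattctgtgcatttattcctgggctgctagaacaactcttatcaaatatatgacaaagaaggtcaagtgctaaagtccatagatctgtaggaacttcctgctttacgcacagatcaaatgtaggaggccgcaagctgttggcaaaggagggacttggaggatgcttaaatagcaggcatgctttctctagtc
Lyz2: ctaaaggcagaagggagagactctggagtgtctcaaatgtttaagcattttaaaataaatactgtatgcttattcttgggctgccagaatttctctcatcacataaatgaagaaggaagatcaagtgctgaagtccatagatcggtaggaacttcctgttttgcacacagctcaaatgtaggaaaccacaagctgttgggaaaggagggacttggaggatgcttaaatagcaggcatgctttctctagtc

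Mpeg1 encodes perforin-2, a pore-forming protein that attacks engulfed bacteria. It averaged 4.80 ± 0.21 in knockout IMQ and 3.80 ± 0.55 in knockout vehicle ears, and 4.71 ± 0.30 in wild-type IMQ and 3.78 ± 0.29 in wild-type vehicle ears (SD, n = 4). The arrays did not overlap in either genotype. Mpeg1 rose by 1.0 ± 0.22 in knockout (adjusted p = 0.00406) and 0.93 ± 0.22 in wild-type ears (adjusted p = 0.0228), where its call was lost without any of 4 single arrays (adjusted p 0.0711 to 0.0830), namely IMQ arrays 1 and 2 and vehicle arrays 1 and 3.

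The Ms4a genes encode membrane proteins with several spans, and the 4 measured here lie close together on chromosome 19. Ms4a6d was the 1 that passed, in knockout ears, where it read 4.86, 4.37, 4.46 and 4.60 with IMQ, against 3.64, 3.70, 3.60 and 3.52 with vehicle. The vehicle ears were close to each other and the rise was 0.96 ± 0.18 (adjusted p = 0.00106). In wild-type ears its change was 0.58 ± 0.18 (adjusted p = 0.0982), with vehicle array 3 (4.35) inside the IMQ range. Ms4a6c changed by 0.71 ± 0.26 in knockout (adjusted p = 0.0812) and 0.95 ± 0.26 in wild-type ears (adjusted p = 0.0541). Ms4a7, a gene of tissue macrophages, changed by 0.47 ± 0.26 (adjusted p = 0.289) and 0.49 ± 0.26 (adjusted p = 0.421), and Ms4a4c by 0.42 ± 0.25 (adjusted p = 0.332) and 0.03 ± 0.25 (adjusted p = 0.979), in knockout and in wild-type ears. The wild-type change of Ms4a6c and the knockout change of Ms4a4c are lower bounds, since their vehicle means of 3.19 and 3.11 were dim.

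**Figure D3:**
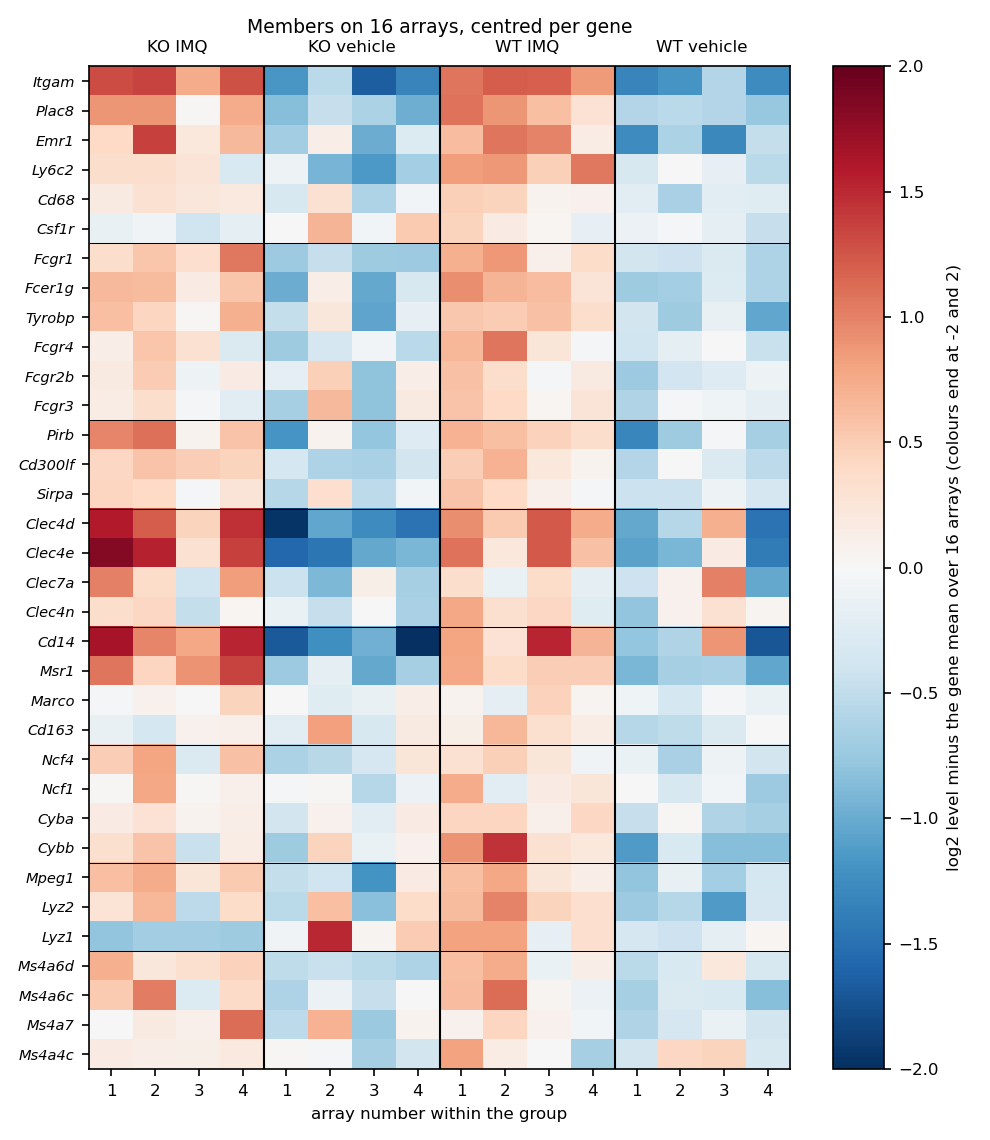
Level of each member on each array minus that gene's mean over the 16 arrays (colour, log2), with arrays in columns by group and genes in rows by role. Itgam, Clec4d, Clec4e and Cd14 show the widest swings, knockout vehicle array 2 holds its group's highest level for 21 members, and wild-type vehicle array 3 for 19.

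Vehicle ears of a group were not alike. The mean level of the 34 genes was 5.17 ± 0.22 in knockout IMQ, 4.37 ± 0.25 in knockout vehicle, 5.23 ± 0.19 in wild-type IMQ and 4.34 ± 0.21 in wild-type vehicle ears (SD over 4 arrays). Knockout vehicle array 2 was the highest of its group for 21 members and array 3 the lowest for 17. Among knockout IMQ ears, array 2 was the highest for 17 members and array 3 the lowest for 22. Of the wild-type vehicle arrays, number 3 was the highest for 19 members, and of the wild-type IMQ arrays, number 4 was the lowest for 19. Without knockout vehicle arrays 3 and 4, which leaves 2 arrays in that group, 13 members rose in knockout ears in place of 16. The share of all genes called higher fell too, from 8.07% to 5.33%.

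Between genotypes no member passed the test in either treatment. In IMQ ears 0 of 34 members differed between knockout and wild type (background 0.0194% higher and 0.1% lower over all genes), and the lowest adjusted p was 0.111. At an unadjusted p under 0.05 there were 3 of 34 members, which is near the share of 8.24% over all genes. The values that follow describe single members and are no result about the group. Lyz1 was lower in knockout than in wild-type IMQ ears by a change of -1.17 ± 0.27 (adjusted p = 0.111). Ly6c2 read 3.93, 3.93, 3.83 and 3.27 in knockout IMQ ears, against 4.42, 4.45, 4.05 and 4.63 in wild-type IMQ ears, so all knockout arrays were the lower ones (-0.65 ± 0.20, adjusted p = 0.339). The arrays of Lyz1 and Cd163 (-0.39 ± 0.21, adjusted p = 0.660) were apart in the same direction, and the third member with an unadjusted p under 0.05 was Msr1 (0.40 ± 0.18, adjusted p = 0.587). The share of all genes with arrays apart between genotypes was not computed. The separation of these members therefore has no background to be read against.

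For several strongly raised genes the interval between genotypes in IMQ ears was narrow. The 95% interval of knockout minus wild type ran from -0.35 to 0.52 for Itgam, from -0.29 to 0.42 for Fcgr1 and from -0.48 to 0.32 for Plac8. For Cd14 (-0.43 to 1.25) and Clec4e (-0.20 to 1.17) the interval reached beyond 1 log2 unit. The median over the 34 members was -0.0025 on the log2 scale, and that over all genes 0.01.

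In vehicle ears 0 of 34 members differed between knockout and wild type after adjustment (background 0.107% higher and 0.349% lower), with a lowest adjusted p of 0.213, and 8 had an unadjusted p under 0.05, against 12.2% of all genes. They included Cd14 (-0.95 ± 0.40, adjusted p = 0.339), Clec4d (-0.84 ± 0.35, adjusted p = 0.326), Lyz1 (0.72 ± 0.27, adjusted p = 0.252) and Cybb (0.71 ± 0.28, adjusted p = 0.300). The Clec4d difference is a lower bound, since its knockout vehicle mean of 3.17 was dim. Arrays of the 2 genotypes overlapped for every member, and the share of all genes that did so was not computed.

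The IMQ effect differed between genotypes for 1 of the 34 genes, Lyz1. Its effect in knockout minus that in wild-type ears was -1.89 ± 0.37 (adjusted p = 0.0193), against a background of 0.721% of all genes called lower and 0.53% called higher. With every transcript cluster tested the call was just lost (adjusted p = 0.0552, range over alternatives 0.00909 to 0.555). As measured, with changes from dim levels at their lower bounds, changes were larger in knockout ears for 14 members and larger in wild-type ears for 20, and 3 members (Lyz1, Csf1r and Cd163) had opposite signs in the genotypes. At an unadjusted p under 0.05 there were 8 members, against 13.1% of all genes, with effects that were smaller in knockout ears for Lyz1, Cybb (-1.28 ± 0.40, adjusted p = 0.129), Lyz2 (-0.998 ± 0.41, adjusted p = 0.287), Cd163 (-0.85 ± 0.30, adjusted p = 0.188), Csf1r (-0.81 ± 0.24, adjusted p = 0.104) and Cyba (-0.52 ± 0.21, adjusted p = 0.283). They were larger in knockout ears for Cd14 (1.36 ± 0.57, adjusted p = 0.296) and Clec4d (1.17 ± 0.49, adjusted p = 0.307). These intervals were wide, from 0.17 to 2.55 for Cd14 and from -2.11 to -0.44 for Cybb, and none but that of Lyz1 passed the adjustment. The same difference for Itgam was 0.17, with an interval from -0.45 to 0.79, and for Pirb 0.01 (-0.80 to 0.82).

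**Figure D4:**
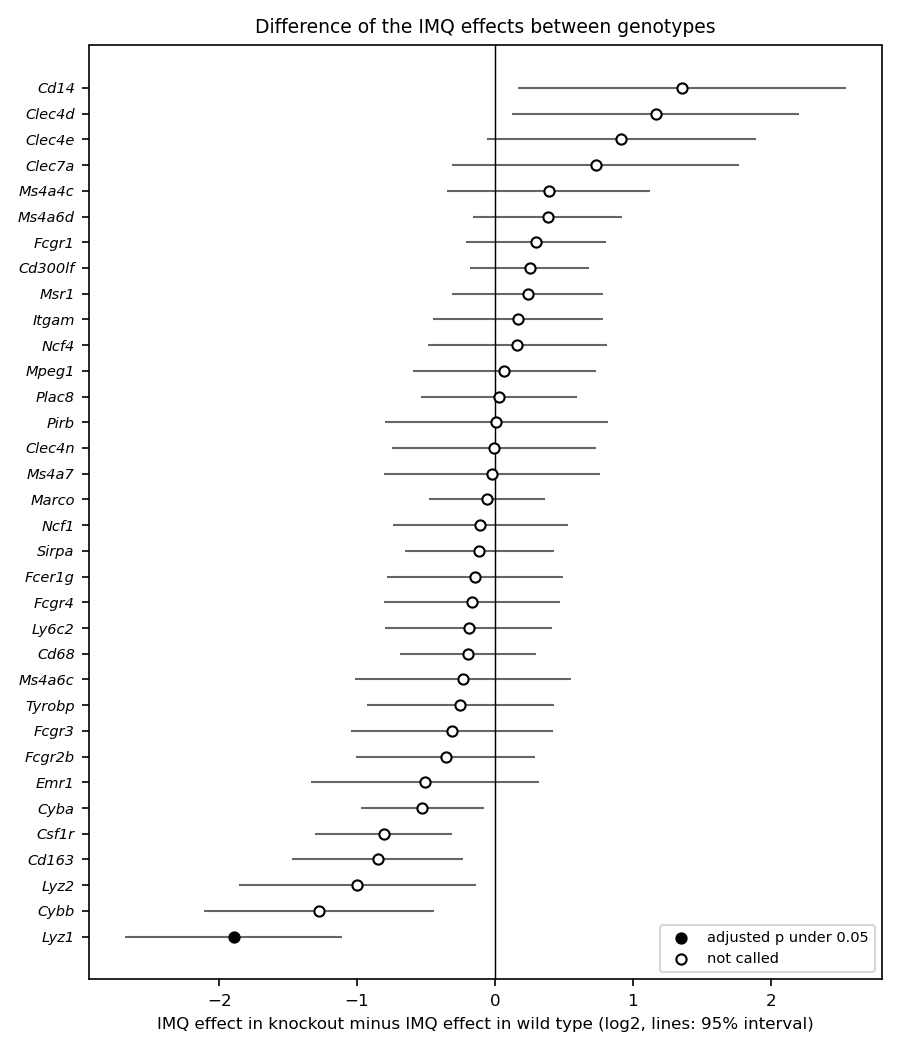
IMQ effect in knockout ears minus that in wild-type ears (x axis, log2, lines are 95% intervals) for the 34 genes, sorted. Only Lyz1 (filled, -1.89) passed an adjusted p under 0.05, and the intervals of Cybb, Lyz2, Cd163, Csf1r, Cyba, Cd14 and Clec4d do not reach 0.

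Other macrophage genes outside the 34 were measured as well. The counts here and in the next paragraph stand against 8.07% of all genes called higher and 6.91% lower in knockout ears. In wild-type ears the shares were 1.95% and 1.69%. In knockout ears 1 call in a list of this size is near those shares. Of 18 genes of monocytes and inflammatory macrophages, 7 rose and 1 fell in knockout ears and 5 rose in wild-type ears (medians 0.19 and 0.34). Fpr1, a receptor for bacterial formyl peptides, rose by 2.14 and 1.57, and the tetraspanin gene Cd53 by 1.61 and 1.15, in knockout and in wild-type ears. Gpnmb, a glycoprotein of phagocytic macrophages, was the gene that fell in knockout ears (-0.63) and had an IMQ effect that was smaller in knockout than in wild-type ears (-1.33 ± 0.27, adjusted p = 0.0201).

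Of 18 genes of resident macrophages, 1 rose and 4 fell in knockout ears, against 6 that rose and none that fell in wild-type ears (medians 0.03 and 0.48). In knockout ears Sepp1, now Selenop (-0.74), and Mertk, a receptor for dying cells (-0.71), fell, and in wild-type ears the hyaluronan receptor gene Lyve1 (1.25) and the complement genes C1qb (1.26) and C1qa (1.12) rose. The difference between genotypes passed for 1 gene of this list, Gas6, the ligand of Mertk (-0.92 ± 0.16, adjusted p = 0.0119). With muscle and adipocyte levels as covariates this call was lost, as were those of Gpnmb and Duox1. Of 13 growth factors, their receptors and transcription factors of these cells, 3 rose and 1 fell in knockout ears and 3 rose in wild-type ears. Spi1, the gene of PU.1, rose by 0.67 in knockout and 0.56 in wild-type ears, Csf1 by 0.63 in wild-type ears and Cebpb by 0.77 in knockout ears, while Il34 fell by 0.39 in knockout ears.

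Some markers of other cells changed with IMQ as well, not all in the same direction. Of 15 neutrophil genes, 8 rose in knockout and 7 in wild-type ears. Their mean level was 5.12 to 5.23 in knockout IMQ, 3.60 to 4.06 in knockout vehicle, 4.90 to 5.12 in wild-type IMQ and 3.84 to 4.32 in wild-type vehicle ears. Retnlg rose by 3.35 and 3.18 and Csf3r by 2.18 and 1.62, in knockout and in wild-type ears, and 7 to 9 of the 15 genes averaged at or below 3.28 in each group. The Langerhans and dendritic cell list had 5 of 15 genes lower in knockout ears, led by H2-Ab1 (-0.99) and Cd74 (-0.98), and none called in wild-type ears. Their part in the members' changes was not tested.

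All 12 skeletal muscle genes fell in knockout ears (median -1.64), none passed in wild-type ears, and 10 of the 12 differed in the IMQ effect. Their mean level was 7.36 to 8.15 in knockout IMQ, 8.73 to 9.65 in knockout vehicle, 7.87 to 8.65 in wild-type IMQ and 7.94 to 8.84 in wild-type vehicle ears. The adipocyte mean was 5.28 to 5.77 in knockout IMQ, 5.47 to 6.41 in knockout vehicle, 5.62 to 6.40 in wild-type IMQ and 4.95 to 5.56 in wild-type vehicle ears, and 6 of 7 cartilage genes fell in knockout and 2 in wild-type ears. With the muscle and adipocyte means as covariates, 2 members rose in knockout ears (Itgam and Emr1) and 3 in wild-type ears (Itgam, Clec4e and Plac8), against 0.288% and 0.259% of all genes. The members' median change was then 0.86 and 0.80. The median standard error was 0.48 in knockout and 0.33 in wild-type ears, against 0.22 without covariates. In that fit Lyz1 changed by -1.65 in knockout ears (adjusted p = 0.134) and its difference between genotypes was -1.50 (adjusted p = 0.555). None of the 30943 genes was called for that difference, so the calls of Duox1, Gpnmb and Gas6 were lost as well. Muscle levels did not overlap between the treatments in knockout ears, and adipocyte levels did not overlap between them in wild-type ears. Tissue makeup and IMQ therefore cannot be told apart in either genotype.

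**Figure D5:**
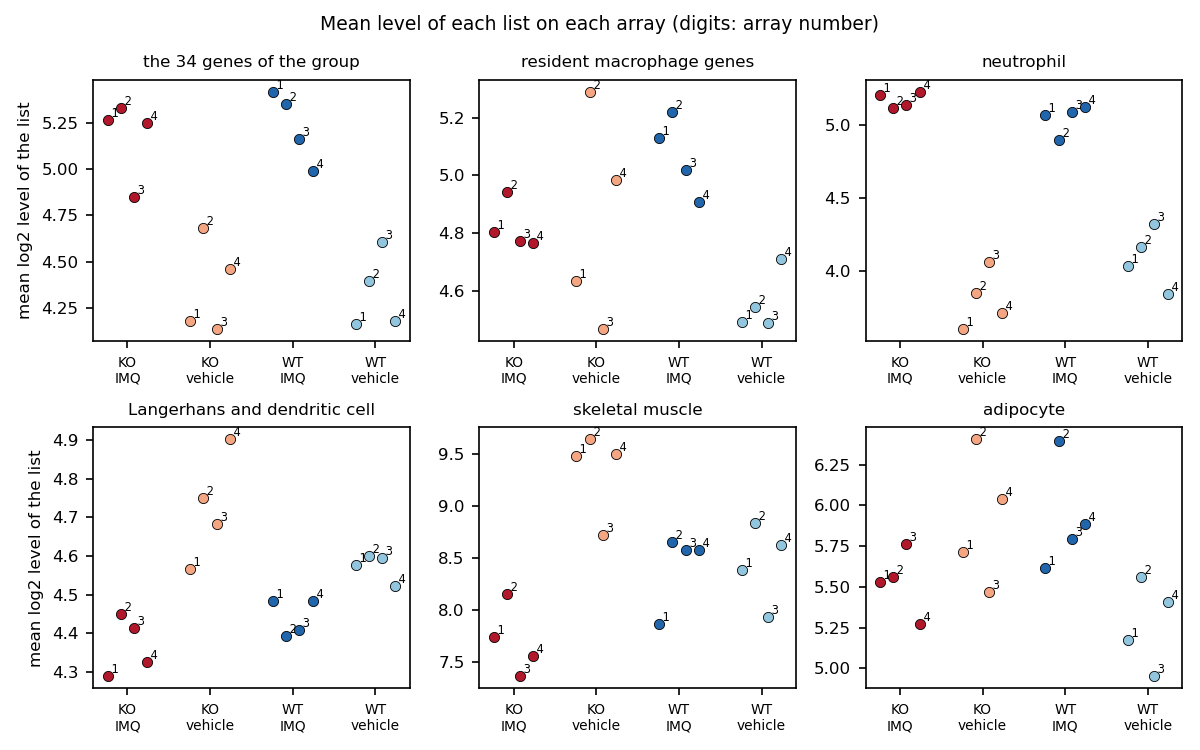
Mean log2 level (y axis) of the 34 genes and of 5 lists of other genes on each array, with array numbers beside the points. The 34 genes and the neutrophil list are higher in IMQ ears of both genotypes, the skeletal muscle list is lower in knockout IMQ ears (7.36 to 8.15) than in knockout vehicle ears (8.73 to 9.65), and knockout vehicle array 2 is the highest of its group for the resident macrophage and adipocyte lists.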

How the data were processed

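Total RNA of whole mouse ears was measured on 16 arrays, 4 in each of 4 groups named by the labels. The authors deposited log2 expression values for 41345 transcript clusters. Per the submitters' processing notes they came from Affymetrix Expression Console, and its version and the summarisation method are not given in the sources used. The same holds for the genome build. No normalization was added, since the array medians already lay between 3.21 and 3.28. Symbols came from the authors' annotation. Of the 34 members, 33 matched the RefSeq gene table (GRCm38.p6) by symbol and 1 by synonym, and 25 had a sequence window. Precision is set by the number of arrays.

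With 1 cluster for each of 30943 genes, limma 3.58.1 (R 4.3.3, lmFit, eBayes) fitted 4 group means and 5 contrasts, with 12 residual and 6.18 prior degrees of freedom. Benjamini-Hochberg adjustment ran over all genes in a contrast, and a gene was called at an adjusted p under 0.05. The fit was tested on simulated data. The members, the other lists, the tests and the sequence motifs were chosen with earlier results of these data known. All members are named. Of each other list the text names up to 4 called genes with the largest changes. Prkcd, Ccr2 and the fall of Gpnmb in knockout ears lie outside that rule and were named after their values were seen. Some called genes of these lists are counted but not reported here by name. Arrays of equal number in different groups were only weakly correlated and were not treated as pairs in the main fit. Alternatives were leaving out dim genes, quantile normalization, centring on medians, trended robust eBayes, weights per array, fits on the compared groups alone, an array-number block, testing every cluster, covariates for muscle and adipocyte levels, and leaving out arrays.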

Additional observations from a re-analysis of the deposited data

Results flagged for a closer look

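In groups of 4 arrays, 9 of 136 gene and group pairs (6.62%) held an array far from the other 3 by Dixon's criterion, and chance marks about 1 in 20. Itgam read 6.93 on knockout IMQ array 3, against 7.47 to 7.55 on the other arrays of that group. On the same array Fcer1g read 6.38 (others 6.78 to 6.86) and Plac8 3.66 (others 4.39 to 4.53). Ly6c2 was low on knockout IMQ array 4 at 3.27 (others 3.83 to 3.93), where Ms4a7 was high at 5.63 (others 4.52 to 4.70). Ncf1 was high on knockout IMQ array 2 at 4.94 (others 4.18 to 4.26), and Fcgr1 on knockout vehicle array 2 at 4.08 (others 3.81 to 3.83). Cyba was low on wild-type IMQ array 3 at 5.24 (others 5.55 to 5.57), and Cd68 on wild-type vehicle array 2 at 5.66 (others 6.06 to 6.10).

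The IMQ effect on Lyz1 differed between genotypes, by -1.89 on the log2 scale as knockout minus wild type (limma, adjusted p = 0.0193). This call was lost with every transcript cluster tested (adjusted p = 0.0552) and with muscle and adipocyte covariates (adjusted p = 0.555).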

How the results depend on the processing

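No direction of a called value reversed under any of the 26 alternatives. With muscle and adipocyte means as covariates, the 16 members higher in knockout ears became 2, the 1 lower became 0, the 16 higher in wild-type ears became 3 and the 1 lower in the difference of effects became 0. The array-number block changed the count of members lower in the difference of effects to 2 (Cybb added, adjusted p = 0.0386), and testing every transcript cluster changed it to 0. Csf1r joined Lyz1 as lower in knockout ears, giving 2, with dim genes left out (adjusted p = 0.0358), with quantile normalization (0.0309) and with the trend and robust options (0.0427). Leaving out single arrays gave 14 to 18 members higher and 1 to 2 lower in knockout ears, 13 to 19 higher in wild-type ears, 0 to 1 lower between genotypes in IMQ ears (Lyz1, without knockout vehicle array 2, adjusted p = 0.0179) and 1 to 2 lower in the difference of effects (Csf1r added without knockout vehicle array 3, adjusted p = 0.0434). The cause of these changes was not tested. Arrays of equal number in different groups were weakly correlated (r from -0.08 to 0.11 over 24 pairs, 1 pair over 0.1, 6 of 16 arrays closest to their own number). Between the vehicle groups r was 0.05 to 0.11. With the block, 77 of all genes were called higher and 163 lower between genotypes in vehicle ears, against 33 and 108 without it. Whether equal numbers mark a shared batch was not tested further. The block gave 17 members higher in knockout and 19 in wild-type ears. Marco and the vehicle levels of 8 members in knockout and 4 in wild-type ears were at or below the array medians, which limits their changes.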

Other observations

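Genes of further cell types were counted in the same fit, where 8.07% of all genes were called higher and 6.91% lower in knockout ears. The shares in wild-type ears were 1.95% and 1.69%. Of 10 mast cell genes, which share the adaptor Fcer1g with the macrophage genes above, 1 rose in knockout ears (Hdc, 2.71) and 4 rose in wild-type ears, among them the protease genes Tpsb2 (1.17) and Cma1 (0.94). Hdc is also made by neutrophils. Of 8 measured T and NK cell genes 1, Cd3g, fell in knockout (-0.57) and in wild-type ears (-0.68), and the 6 B cell genes averaged at or below 3.28 in all groups with none called. Of 9 keratinocyte genes 6 rose and 2 fell in knockout ears, against 1 and 1 in wild-type ears, and Krt6a was lower in knockout than in wild-type vehicle ears (-2.70 ± 0.55, adjusted p = 0.0326). Of 8 endothelial genes 2 rose in knockout and 1 in wild-type ears, Pecam1 in both (0.39 and 0.77). Of 7 fibroblast genes 1 rose and 2 fell in knockout ears, against 2 and 1 in wild-type ears, where Pdgfra rose (0.72 and 1.10) and Col1a1 fell (-0.73 and -0.93) in knockout and in wild-type ears. Of 8 adipocyte genes Plin1 fell in knockout ears (-0.84), while Cidec (1.26) and Fabp4 (1.01) rose in wild-type ears.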
